A study of Mus musculus with 7 samples.

Results

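Ribosomal protein genes encode the structural proteins of the cytoplasmic ribosome, those of the large subunit (Rpl and Rplp) and those of the small subunit (Rps). In mammals their products are assembled in near equal numbers on ribosomal RNA in the nucleolus, and their mRNAs are among the most abundant of growing cells. Most begin with a run of pyrimidines, the terminal oligopyrimidine or TOP tract, through which the mTOR pathway controls their translation. A few have paralogues that are expressed in 1 tissue, such as striated muscle or testis, and can take the place of the common protein in the ribosome.

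Genes were chosen by name alone, as symbols of the Rpl, Rplp or Rps series that carry a number, without the S6 kinases and the pseudogenes. This gave 49 of the 18194 genes represented on the arrays, measured by 104 probe sets that are annotated to a single gene. Of these, 42 are core ribosomal proteins, 22 of the large and 20 of the small subunit. A further 6 are paralogues and are described on their own (Rpl3l, Rpl7l1, Rpl22l1, Rpl39l, Rps4l and Rps27l), and Rps19bp1, which encodes a protein that binds Rps19, was set apart because it is no ribosomal protein. The family is not complete here. A further 31 symbols of the series, Rpl3 among them, were met only in probe sets annotated to several genes, of which there were 110, and are not described. Rpsa and Fau, which encode subunit proteins but carry no number, are given with the related lists.

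Each of 7 conditions was hybridized to 1 array. The adult tissues were whole Brain, Liver and skeletal muscle (Sk_muscle) of adult male ICR mice. Ect, End and Pme are ectoderm, endoderm and paraxial mesoderm differentiated in culture from SK7_ESC, the undifferentiated SK7 line, which is a single male ES cell line with a GFP transgene under the Pdx1 promoter that the layers carry too. The labels give ICR as the strain of all 7. With 0 replicates there is no spread to test against, so differences are given by size, and no p-value is given. Values are linear signals that the authors scaled globally, a gene has the signal of its brightest probe set on average, and a signal under 50 counts as background. A gene was called higher or lower at a ratio of at least 2 between 2 arrays, with signals under 50 raised to 50, so that a ratio to such a signal is a lower bound.

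The arrays carried the genes of their labels in the main. The signal of Pou5f1 was 2037.9 in SK7_ESC and at most 57.3 elsewhere, Sox17 was brightest in End, Fabp7 in Ect, Snap25 in Brain, Alb in Liver and Ckm in Sk_muscle. The ES cell marker Nanog was 1533.4 in SK7_ESC but also 299.5 in End. The ectoderm marker Pax6 was brightest in Ect, but at 30.5, under background. Of the 5 paraxial mesoderm markers, Pdgfra, Twist1 and Tbx6 were brightest in Pme, but Tbx6 was 17.7 there, under background, as was Meox1. The fibroblast genes Dcn and Col1a2 were 1765.6 and 1772.9 in Pme, against 21.9 and 179.5 in SK7_ESC, and Dcn was also 951.1 in Ect, 148.1 in End, 177.3 in Brain, 2149 in Liver and 6503.7 in Sk_muscle. The part of such cells in the values of these arrays was not tested. In whole cultures and tissues, fewer cells of a type cannot be told apart from less RNA per cell.

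Most of the core genes were bright in every array. In 33 of the 42 the signal was at least 1000 in all 7 arrays, a limit set after the values had been seen, and the 9 others were Rpl12, Rpl14, Rpl27a, Rpl37, Rpl39, Rps6, Rps16, Rps25 and Rps27. Rps16 was between 0.2 and 0.7 throughout, under background, so that its probe set gives no level. The 8 remaining dim genes had between 19.2 and 868.5. Probe sets differ in brightness for the same amount of RNA, so that these values do not rank the genes. For 30 of the 42 core genes the probe set used has an identifier that marks sequence shared with other transcripts.

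Several of these genes carry the TOP tract at the start site that RefSeq annotates. Of 37 core genes found in the RefSeq promoter table (GRCm38.p6), 8 had a C followed by at least 4 bases that are C or T exactly at an annotated start, which is 21.6%, against 3.01% of 27018 genes in the table. Within 5 bases of the start, on either side, the motif was met in 18 of 37 core genes (48.6%) and in 21.2% of all genes. Of the 5 paralogues in the table, 0 had it at the start and 2 within 5 bases. Only the strand that reads like the transcript was searched. The windows below run from 10 bases before the start to the 15th transcribed base and are shown for members with a tract whose signals are discussed below, followed by 2 paralogues with none at the start. Capitals mark the pyrimidine run from the start site on.
Rps27 (chr3:90213634-90213658, minus strand): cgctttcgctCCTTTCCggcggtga
Rpl38 (chr11:114668570-114668594, plus strand): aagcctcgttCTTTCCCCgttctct
Rplp2 (chr7:141447641-141447665, plus strand): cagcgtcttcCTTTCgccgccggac
Rps18 (chr17:33955651-33955675, minus strand): cacttccgctCTCTCTTCCacagga
Rps6 (chr4:86857353-86857377, minus strand): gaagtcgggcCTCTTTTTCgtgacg
Rpl14 (chr9:120571507-120571531, plus strand): ggccctctctCTTCTCgctgagcgc
Rpl3l (chr17:24727816-24727840, plus strand): ttctagctctgtcatttgacctctg
Rpl39l (chr16:10170218-10170242, plus strand): aggcctttccggatttccggtggtc

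Within the cultured cells the core genes hardly differed on the probe sets used. The ratio of the brightest to the dimmest of Ect, End, Pme and SK7_ESC had a median of 1.08 over the 42 genes. It was below 1.1, a limit chosen after the values had been seen, for 27 of the 33 bright genes, against 46.9% of all genes. Among the dim genes only Rps16 was below it, because its signals are all under background and were raised to 50. Over the 12481 genes above background in any array, 22.6% stayed within 1.1-fold. The ratio reached 2 for 1 core gene, against 20.4% of all genes. Of 167 other genes of at least 1000 in all 7 arrays, 21 stayed within 1.1-fold. The steadiest were Rps3a1, a protein of the small subunit, with 7340.7 in Ect, 7247.1 in End, 7200.8 in Pme and 7337.8 in SK7_ESC, and Rpl38, a large subunit protein needed for the patterning of the mouse axial skeleton, with 7426.6, 7271.4, 7323.6 and 7337.8 in the same arrays. The 33 bright genes lay between 3880.3 and 7686.4 in these 4 arrays, whose highest signals over all probe sets were between 8695.1 and 9390.8. How far the upper end of the signal range narrows such ratios was not tested. Other probe sets of a core gene could differ more. Rps9 had between 4000.3 and 4401.2 in culture on the probe set used. Its other probe sets had 82.5 and 550.4 in Ect, 79.5 and 320.5 in End and 65.5 and 1542.1 in Pme, against 79.2 and 106.4 in SK7_ESC.

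**Figure D1:**
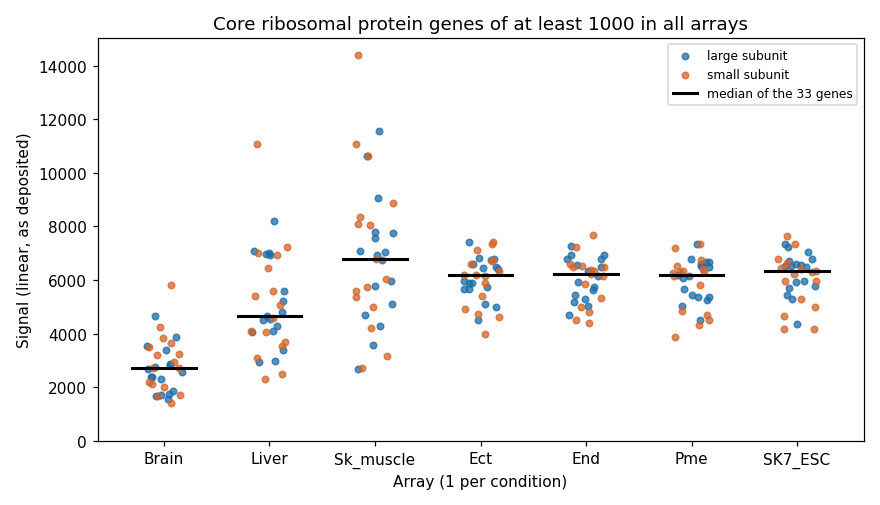
Signals (linear axis from 0) of the 33 core genes of at least 1000 in all arrays, by array (1 each), with blue points for large and orange points for small subunit genes and a black bar for the median. The medians are 2703.8 in Brain, 4664.2 in Liver and 6768.3 in Sk_muscle, against 6179.5 in Ect, 6212.1 in End, 6194.3 in Pme and 6341.9 in SK7_ESC, and the points spread more widely in Liver and Sk_muscle than in the cultured cells.

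Between the germ layers and SK7_ESC next to no core gene was called. In Ect, 1 of 42 was lower than in SK7_ESC, against 4.89% of all genes and 9.53% of the genes above background in either array. In the same array 0 were higher, against 6.63% and 12.9%. In End, 0 were lower and 0 higher, where 3.81% of all genes were lower and 4.89% higher (7.69% and 9.87% of those above background). In Pme, 0 were lower and 0 higher as well, beside 4.55% and 6.75% of all genes (8.88% and 13.2% of those above background). The median log2 ratio of the core genes to SK7_ESC was -0.02 for Ect, -0.02 for End and -0.05 for Pme, while that of all genes was 0.0 in each. The 3 comparisons share the SK7_ESC array.

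Among the probe sets used for the core genes, the exceptions were dim ones. Rps27, a small subunit protein with a zinc finger, was the gene called in Ect, with 62.1 for Ect, 64.7 for End and 108.7 for Pme, against 126.8 in SK7_ESC, all within 2.54-fold of background. Rps6, the small subunit protein that S6 kinases phosphorylate, had 558.1 for Ect, 382.1 for End and 363.6 for Pme, against 342.4 in SK7_ESC, and its ratio of 1.63 in Ect was the largest upward ratio of a core gene in any layer. Rpl10a, a bright large subunit gene, was 5667.3 for Ect, 6917.3 for End and 6479.4 for Pme, against 6708 in SK7_ESC. This is the widest range among the bright genes in culture and amounts to 1.22-fold.

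Of the adult tissues, Brain differed most from SK7_ESC in the core genes, at the scaling as deposited. As deposited and on the probe sets used, all 33 bright core genes had their lowest signal in Brain. Of them, 18 had their highest in Sk_muscle. This order turned for part of them after quantile normalization, as given below. Against SK7_ESC, 29 of 42 core genes were lower in Brain and 0 higher, where 15.0% of all genes were lower and 14.9% higher (25.8% and 25.7% of those above background in either array). In Liver 8 were lower and 0 higher, beside 16.0% and 12.2% of all genes (29.8% and 22.7% of those above background). In Sk_muscle 5 were lower and 0 higher, beside 15.2% and 12.7% of all genes (28.5% and 23.8% of those above background). The count of lower genes in Liver is thus slightly above the share of all genes and below that of genes above background, and in Sk_muscle it is below both. The median log2 ratio of the core genes to SK7_ESC was -1.27 in Brain, -0.38 in Liver and 0.004 in Sk_muscle, and that of genes above background in either array was 0.02, -0.23 and -0.14. These comparisons share the SK7_ESC array too.

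The subunits are given side by side. In Brain, 17 of 22 large subunit genes and 12 of 20 small subunit genes were lower than in SK7_ESC, with median log2 ratios of -1.32 and -1.17. In Liver the medians were -0.45 for the large and -0.30 for the small subunit, and in Sk_muscle they were 0.01 and 0.004. No difference between the subunits was tested.

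In Brain the lowest ratios among bright genes, on the probe sets used, were those of Rpl22, Rplp0, Rps18, Rpl8 and Rps9. Rpl22, an RNA-binding protein of the large subunit needed for T cell development in mice, had 1567.6 in Brain and 6602.5 in SK7_ESC and was thus 4.21-fold lower. Its 2 other probe sets ran lower in Brain than in SK7_ESC as well, with 900.5 against 4510.7 and 228.4 against 534.3. Rplp0, the base of the stalk that recruits elongation factors, had 1742.5 in Brain and 6468.3 in SK7_ESC, a 3.71-fold difference. Rplp2, which forms the tip of the same stalk, had 2553.4 in Brain and 7241.2 in SK7_ESC. Rpl8, which lies near the peptidyl transferase centre, had 1689.8 in Brain and 5963.8 in SK7_ESC. At the other end, the ratio of Rps29, a small subunit protein with a zinc finger, was 0.76, with 5826.6 in Brain and 7658.4 in SK7_ESC. On the probe sets used, the bright genes thus kept between 0.24 and 0.76 of their signal in SK7_ESC. Other probe sets could lie outside this range, such as 1 of Rps10 with 379.2 in Brain and 4543.5 in SK7_ESC.

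**Figure D2:**
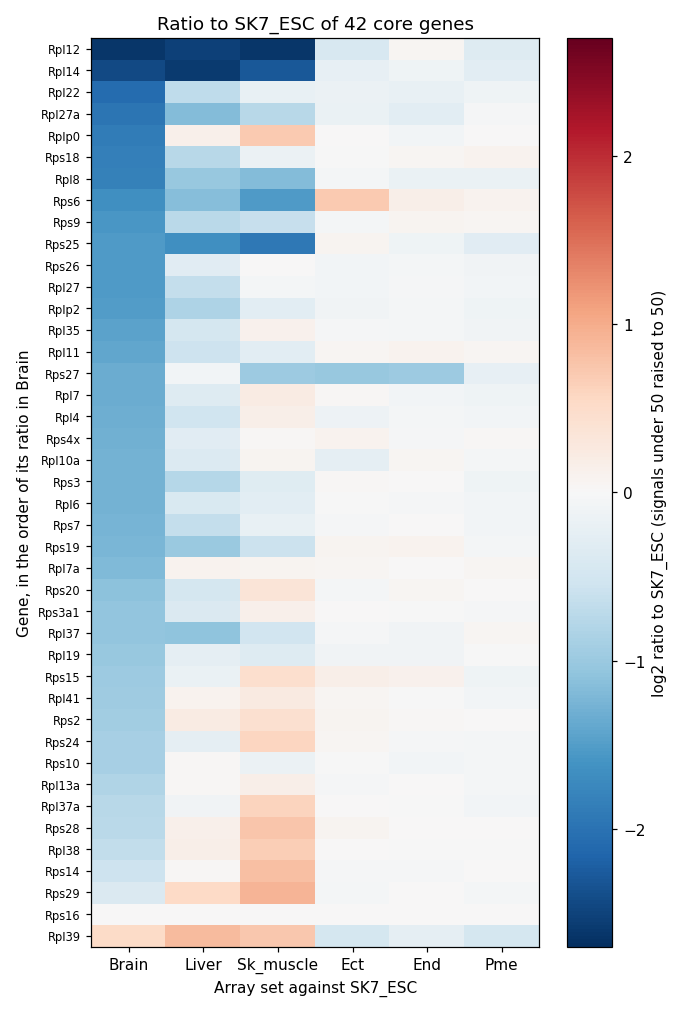
Log2 ratio to SK7_ESC of each of the 42 core genes (lines, in the order of their ratio in Brain) in Brain, Liver, Sk_muscle, Ect, End and Pme (columns, 1 array each), with blue for lower, red for higher and signals under 50 raised to 50. The Brain column is blue in all but 2 lines, those of Rps16, which is under background throughout, and Rpl39, and the columns of the 3 layers are pale.

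The size of these differences depended on the scaling, and the arrays differed at their bright end. The highest signal was 6543.4 in Brain, 16411.1 in Liver and 18754.3 in Sk_muscle, and between 8695.1 and 9390.8 in the cultured cells. After quantile normalization, which gives all arrays the same range, 15 core genes were lower in Brain than in SK7_ESC, 17 in Liver and 13 in Sk_muscle, and the median log2 ratios were -0.78, -0.90 and -0.76. With that scaling the median of Brain thus lay between those of Liver and Sk_muscle. Among the 167 other genes of at least 1000 in all arrays, the median log2 ratio to SK7_ESC was -0.52 in Brain, -0.04 in Liver and 0.42 in Sk_muscle.

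Among the adult tissues the core genes were for the most part brightest in Sk_muscle as deposited, an order that quantile normalization did not keep. Against Brain, 26 of 42 were higher in Sk_muscle and 0 lower, where 12.4% of all genes were higher and 14.2% lower (21.9% and 25.0% of those above background). Against Brain, 8 were higher in Liver and 0 lower, beside 12.0% and 15.7% of all genes (20.7% and 27.0% of those above background). Between Sk_muscle and Liver 0 were called in either direction, beside 12.1% higher and 10.6% lower of all genes (23.5% and 20.6% of those above background). Of the 167 other genes of at least 1000 in all arrays, 82 were higher in Sk_muscle than in Brain and 3 lower. For Liver over Brain, 30 of these other genes were higher and 5 lower, and for Sk_muscle over Liver 63 and 12. The brightest of the 3 tissues was at least 2-fold over the dimmest for 27 of 42 core genes (64.3%), against 40.0% of all genes, 58.3% of those above background in any array and 66.5% of the 167 other genes of at least 1000 in all arrays. The median log2 ratio was 1.23 for Sk_muscle over Brain, 0.82 for Liver over Brain and 0.42 for Sk_muscle over Liver. After quantile normalization the medians against Brain turned to -0.009 for Sk_muscle and -0.11 for Liver, with 2 and 3 genes called higher, so that the order of the 3 tissues changed with the scaling. Of the 21 core genes that have a probe set without shared sequence, 8 were under background in all 3 tissues on it and give no order. Of the 13 others, 10 were higher in Liver than in Brain and 10 were higher in Sk_muscle than in Brain, at the scaling as deposited. The comparisons share their arrays.

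Rplp0 differed from the rest of the family between tissues. It had 10615.5 in Sk_muscle, 7094.6 in Liver and 1742.5 in Brain, which is 6.09-fold higher in Sk_muscle and 4.07-fold higher in Liver than in Brain, against core medians of 2.34-fold and 1.77-fold. Rplp0 is often used as a reference gene in expression assays. It had 6496.1 in Ect, 6142.1 in End, 6514.6 in Pme and 6468.3 in SK7_ESC, and was thus among the steady genes in culture.

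Rpl8 and Rps19 were lower in muscle than in SK7_ESC, although Rps19 was not called. Rpl8 had 2658.6 in Sk_muscle and 5963.8 in SK7_ESC, 2.24-fold lower. On the probe sets used, it was the only bright core gene called in that comparison. Rps19, which is mutated in human Diamond-Blackfan anaemia, had 1991.8 in Brain, 2320.8 in Liver and 3145.5 in Sk_muscle, against 4909.1 in Ect, 4973.5 in End, 4522.9 in Pme and 4672.4 in SK7_ESC. All 3 adult signals of both genes lay below those of the 4 cultured arrays. In contrast, Rps14, a small subunit gene of the human 5q- syndrome, had 11076.7 in Sk_muscle and 6278.4 in SK7_ESC, and its ratio of 1.76 stayed under the limit for a call. Probe sets of the same gene could differ between these 2 arrays. Rpl13a had 7557.5 in Sk_muscle and 6789.9 in SK7_ESC on the probe set used. Its other probe sets had 4390.4 against 4436.4, 781.5 against 3409.7 and 295 against 2700.9 in Sk_muscle and SK7_ESC.

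All 3 adult signals lay below all 4 cultured signals for 16 of the 42 core genes, against 14.5% of all genes and 20.3% of those above background in any array, and for 10 of the 33 bright ones. All 3 lay above for 1 core gene, against 10.8% of all genes and 10.4% of those above background. The 16 include Rpl11, which binds Mdm2 and so acts on p53, with 1659.5 in Brain, 2974.6 in Liver and 3572.4 in Sk_muscle, against 4505.6 in Ect, 4675.5 in End, 4504.5 in Pme and 4363.5 in SK7_ESC. They also include Rps3, a small subunit protein with a part in DNA repair, with 2179.4, 3076.7 and 4202 in Brain, Liver and Sk_muscle and between 4853.7 and 5390.2 in culture. The count of 16 was 10 after scaling to the genes above 50 in all arrays and 36 after quantile normalization.

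The 9 dim core genes varied among themselves. Their median ratio to SK7_ESC was 0.34 in Brain, 0.45 in Liver and 0.51 in Sk_muscle, where that of the bright genes was 0.42, 0.78 and 1.06, but Rps16 has no level, Rpl39 was higher in all 3 tissues, and Rps27 had a ratio of 0.95 in Liver. Rpl14 had 68.3 in Brain, 61.9 in Liver and 75.6 in Sk_muscle, against 317.9 in Ect, 339.8 in End, 305 in Pme and 369.6 in SK7_ESC. Rpl12, which lies at the base of the stalk, had 49.9, 53.7 and 26.7 in Brain, Liver and Sk_muscle and between 229.5 and 323 in culture. Rps25, needed by some viral RNAs to bind the ribosome without a cap, had 65.6, 60.8 and 49.4 in Brain, Liver and Sk_muscle, against between 153.4 and 199.4 in culture. The groups did not overlap for these 3 genes, nor for Rps6, Rpl27a and Rpl37. All 3 adult signals were thus below the cultured ones for 6 of the 9 dim genes. The share was 14.5% of all genes and 20.3% of those above background in any array. The signals of Rpl12 in Brain and Sk_muscle and of Rps25 in Sk_muscle were under background. Rpl14 was 5.41-fold lower in Brain, 5.97-fold lower in Liver and 4.89-fold lower in Sk_muscle than in SK7_ESC, in tissues where the core median was 0.41, 0.77 and 1.003 times SK7_ESC. Of the probe sets used for the 9 dim genes, 8 have identifiers that do not mark shared sequence. Such probe sets of bright genes differed among themselves. For Rps3, 1 had 95.7, 32.8 and 94.9 in Brain, Liver and Sk_muscle, against 357.4 in SK7_ESC. That of Rpl19 had 2663.2, 4551.5 and 4274.3, against 5423.5 in SK7_ESC. The part of probe design in the ratios of the dim genes was not tested.

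Rpl39 was the 1 core gene with higher signals in all adult tissues. Rpl39, a small protein that lines the exit tunnel of the large subunit, had 100.3 in Brain, 127.1 in Liver and 116 in Sk_muscle, against 50.6 in Ect, 59.3 in End, 19.2 in Pme and 69.8 in SK7_ESC. The groups did not overlap, but the ratios to SK7_ESC were 1.44, 1.82 and 1.66 and no call was made. After scaling to the same median over all probe sets the groups overlapped.

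The ratio of the brightest to the dimmest array had a median of 14.3 over the 6 paralogues, with a range from 1.95 to 80.0, against a median of 2.66 for the core genes. It was at least 2 for 5 of the 6 paralogues and for 39 of the 42 core genes, beside 56.6% of all genes and 82.5% of those above background in any array, so that the count does not set the paralogues apart. The 6 paralogues fell into those above background in a single array (Rpl3l and Rpl39l), 1 that was graded (Rps4l), 1 low in Brain alone (Rps27l) and 2 that were expressed broadly (Rpl22l1 and Rpl7l1), a grouping made after the values had been seen.

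Rpl3l, the form of Rpl3 found in striated muscle, was above background in Sk_muscle alone. It had 3999.4 in Sk_muscle, 4.1 in Brain and 4.2 in Liver, against 2.1 in Ect, 1.2 in End, 0.6 in Pme and 18.6 in SK7_ESC. All 6 other arrays were under background, and Sk_muscle was at least 80.0-fold higher than each of them. The common form Rpl3 was met only in probe sets annotated to several genes and is not given. Rpl3l lies at chr17:24727826-24736143 in GRCm38.p6. The 250 bases before the first annotated start of Rpl3l (chr17:24727576-24727825, plus strand) are shown because the study concerned CpG methylation of promoters, with CG dinucleotides in capitals.
Rpl3l: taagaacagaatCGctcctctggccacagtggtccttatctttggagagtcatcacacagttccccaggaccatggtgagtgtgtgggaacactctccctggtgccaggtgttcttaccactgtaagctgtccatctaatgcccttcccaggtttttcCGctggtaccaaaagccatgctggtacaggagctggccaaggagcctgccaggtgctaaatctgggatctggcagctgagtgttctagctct
This stretch holds 2 CG dinucleotides, and that before a further annotated start of the gene holds 3. With the richest start of each gene taken, the 37 core genes held between 5 and 31 CG dinucleotides, with a median of 18, and all genes of the table a median of 6.

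Rpl39l, the form of Rpl39 that mouse spermatogenic cells express, was above background in ES cells alone. It had 8.8 in Brain, 11.4 in Liver, 36.7 in Sk_muscle, 1.4 for Ect, 4.6 for End and 2.8 for Pme, against 755.4 in SK7_ESC. Its signal was under background in all 6 somatic arrays, and at least 15.1-fold lower in each layer and tissue than in SK7_ESC. Rpl39, the common form, was above background in 6 of the 7 arrays. The 250 bases before the annotated start of Rpl39l (chr16:10169978-10170227, plus strand) hold 12 CG dinucleotides, again in capitals.
Rpl39l: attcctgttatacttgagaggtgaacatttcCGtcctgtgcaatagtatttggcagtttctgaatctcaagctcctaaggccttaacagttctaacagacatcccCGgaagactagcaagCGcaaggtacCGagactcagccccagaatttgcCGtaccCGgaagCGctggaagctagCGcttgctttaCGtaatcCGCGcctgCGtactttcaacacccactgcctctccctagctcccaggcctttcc
The methylation of these bases was not analysed here.

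Rps4l, an autosomal relative of the X-linked small subunit gene Rps4x, was graded over the arrays. It had 58.5 in Brain, 70.1 in Liver and 8 in Sk_muscle, then 299 for Ect, 480.6 for End and 938.5 for Pme, against 2915.9 in SK7_ESC. It was 9.75-fold lower in Ect, 6.07-fold lower in End and 3.11-fold lower in Pme than in SK7_ESC, and at least 58.3-fold lower in Sk_muscle. The layers themselves differed by 3.14-fold, and 11.7% of all genes reached 2-fold among the layers. Rps4x, in the same arrays, had 2703.8 in Brain, 5385.3 in Liver and 6768.3 in Sk_muscle, and between 6481.7 and 7104.1 in culture. Rps4l is at chr6:148354656-148355596 in GRCm38.p6.

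**Figure D3:**
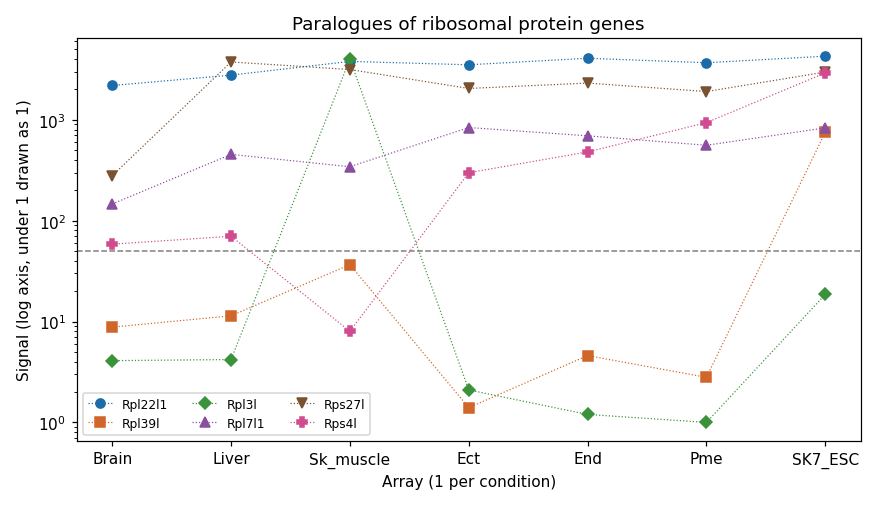
Signals of the 6 paralogues on a log axis, by array (1 a condition). Signals below 1 are placed at 1, dotted lines only join the points of a gene, and the dashed line is the background (50). Rpl3l stands at 3999.4 in Sk_muscle and Rpl39l at 755.4 in SK7_ESC, both under 50 elsewhere, and Rps4l is graded, with 2915.9 in SK7_ESC.

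Rps27l, a near copy of Rps27 that p53 induces, was low in Brain alone. It had 279.1 in Brain, 3744.4 in Liver and 3152.5 in Sk_muscle, with 2045.8 for Ect, 2313.3 for End and 1907.4 for Pme, against 2976.2 in SK7_ESC. It was 10.7-fold lower in Brain than in SK7_ESC, and 13.4-fold higher in Liver than in Brain. Its 3 probe sets ran alike, with 279.1, 278 and 233.9 in Brain, although the identifiers of all 3 mark shared sequence. Within the layers the main signal stayed within 1.21-fold.

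Rpl7l1 and Rpl22l1 were above background in all arrays. Rpl7l1, a relative of Rpl7, had 146.5 in Brain, 454.4 in Liver and 342.7 in Sk_muscle, with 838.5 for Ect, 694.1 for End and 559.4 for Pme, against 832.2 in SK7_ESC. It was 5.68-fold lower in Brain and 2.43-fold lower in Sk_muscle than in SK7_ESC, and its adult signals lay below all cultured ones, as did those of its 2 other probe sets. Rpl7, the common form, was 2287 in Brain and 6751.4 in Sk_muscle, against 5770 in SK7_ESC. Rpl22l1, which can take the place of Rpl22 in mice that lack it, varied least of the 6, with 2190.3 in Brain, 2773.3 in Liver and 3795.3 in Sk_muscle, and between 3513.3 and 4275.1 in culture. Its ratio of Brain to SK7_ESC was 0.51, where that of Rpl22 was 0.24.

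**Figure D4:**
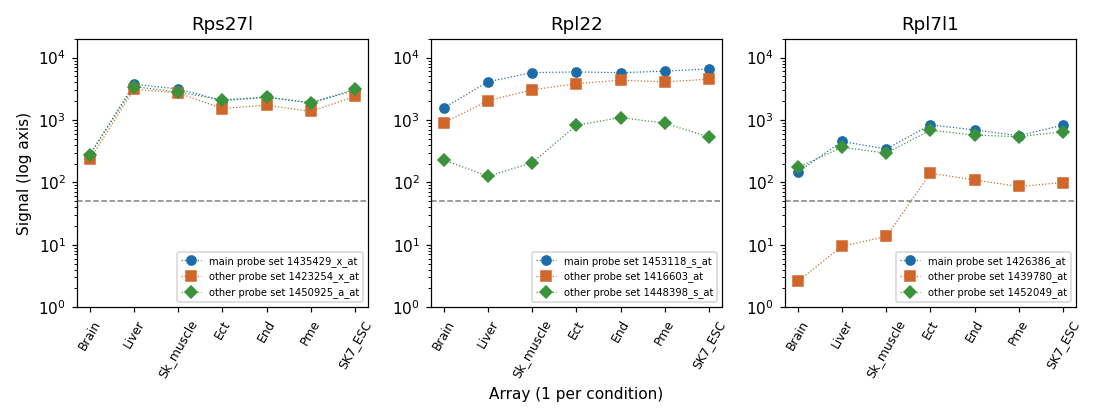
Signals (log axis) of every probe set annotated to Rps27l, Rpl22 and Rpl7l1 alone, by array (1 a condition), where the dashed line is the background (50). The 3 probe sets of Rps27l lie close together, at 233.9 to 279.1 in Brain, whereas 1 probe set of Rpl22 is at 228.4 in Brain and 1093.5 in End, far under the main one.

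Rps19bp1, the gene for a nucleolar protein that binds Rps19, had 158 in Brain, 191.8 in Liver and 99.3 in Sk_muscle, with 209 for Ect, 211.9 for End and 194.6 for Pme, against 299.7 in SK7_ESC. It was 3.02-fold lower in Sk_muscle than in SK7_ESC.

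Genes of ribosome biogenesis had lower median ratios to SK7_ESC than the core genes in all 6 other arrays, a difference that was not tested. The lists were set up with earlier results known. Of 66 genes of ribosome biogenesis, which process ribosomal RNA and assemble the subunits, 59 were lower in Brain than in SK7_ESC, 59 in Liver and 58 in Sk_muscle, and 0 were higher in any of them, beside 25.8%, 29.8% and 28.5% of the genes above background that were lower in Brain, Liver and Sk_muscle. In the layers 18 were lower for Ect, 6 for End and 29 for Pme, and 0 were higher, beside 9.53%, 7.69% and 8.88% of the genes above background that were lower in Ect, End and Pme. The shares of higher genes were 25.7%, 22.7% and 23.8% in Brain, Liver and Sk_muscle and 12.9%, 9.87% and 13.2% in Ect, End and Pme. For this list the median ratio to SK7_ESC was 0.18 for Brain, 0.22 for Liver and 0.25 for Sk_muscle, where that of the core genes was 0.41, 0.77 and 1.003. In the layers it was 0.57 for Ect, 0.67 for End and 0.51 for Pme, where that of the core genes was 0.99, 0.98 and 0.96. All 3 adult signals lay below all 4 cultured signals for 52 of the 66, against 14.5% of all genes and 20.3% of those above background in any array.

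Named genes of that list show the size of the lower signals. Ncl, the nucleolar protein nucleolin, had 719.6 in Brain, 515.8 in Liver and 1351.1 in Sk_muscle, with 4305.5 for Ect, 4469.1 for End and 4074.8 for Pme, against 5622.4 in SK7_ESC. Dkc1, the pseudouridine synthase of box H/ACA particles, had 143.1 in Brain and 158.4 in Liver, against 1887.7 in SK7_ESC. Tcof1, a nucleolar factor of ribosomal RNA transcription, had the lowest ratio of the list in each layer, with 110.7 for Ect, 128.3 for End and 99.9 for Pme, against 367 in SK7_ESC. In contrast, 4 of the 66 genes had a higher signal in Sk_muscle than in SK7_ESC. Nop10 was among them, with 4240.2 in Sk_muscle and 2120.9 in SK7_ESC, and was not called.

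Of 76 genes for mitochondrial ribosomal proteins, 22 were higher in Sk_muscle than in SK7_ESC and 0 lower, where 35 were lower in Brain and 10 in Liver, with 0 and 3 higher. Of the genes above background in either array, 23.8% were higher in Sk_muscle, so that the 22 higher genes are not far above their background. The shares of lower genes were 28.5% in Sk_muscle, 25.8% in Brain and 29.8% in Liver, and 25.7% and 22.7% were higher in Brain and Liver. The median log2 ratio was 0.59 in Sk_muscle, -0.91 in Brain and -0.27 in Liver. Mrpl51 had 5684.5 in Sk_muscle and 997.6 in SK7_ESC, and Mrps21 had 1472.1 in Sk_muscle and 279.6 in SK7_ESC. In the layers 10 were lower for Ect, 2 for End and 8 for Pme, with 0 higher. Of the genes above background, 9.53%, 7.69% and 8.88% were lower in Ect, End and Pme, and 12.9%, 9.87% and 13.2% were higher.

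Of 65 genes with symbols of the translation factor series, which takes in a few enzymes that modify or regulate them, 35 were lower and 4 higher in Brain than in SK7_ESC, 31 lower and 0 higher in Liver, and 22 lower and 6 higher in Sk_muscle. Of the genes above background, 25.8% were lower in Brain, 29.8% in Liver and 28.5% in Sk_muscle, so that the count of lower genes for Sk_muscle is near that share. The shares of higher genes were 25.7%, 22.7% and 23.8% in Brain, Liver and Sk_muscle. Fewer were called in the layers, with 6 lower and 2 higher in Ect, 1 and 1 in End and 4 and 2 in Pme. Of the genes above background, 9.53%, 7.69% and 8.88% were lower in Ect, End and Pme, and 12.9%, 9.87% and 13.2% were higher. Eef1a2, the elongation factor form of neurons and muscle, had 2089.1 in Brain, 82.7 in Liver and 4553.3 in Sk_muscle, against 47.7 in SK7_ESC. Eef1a1, the common form, had 5270.8, 11386 and 5674.2 in Brain, Liver and Sk_muscle, against 7022.1 in SK7_ESC. Eif4ebp1, the mTOR target that holds back cap-dependent initiation, had 23 in Brain, 656.6 for Ect, 1727.2 for End and 1913.5 for Pme, against 2476.5 in SK7_ESC. Of the 2 subunit genes outside the name series, Rpsa had 1881.5 in Brain and 5646.8 in Sk_muscle, against 6322.8 in SK7_ESC, and Fau had 2318.5 and 3521.9, against 4155 in SK7_ESC.

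**Figure D5:**
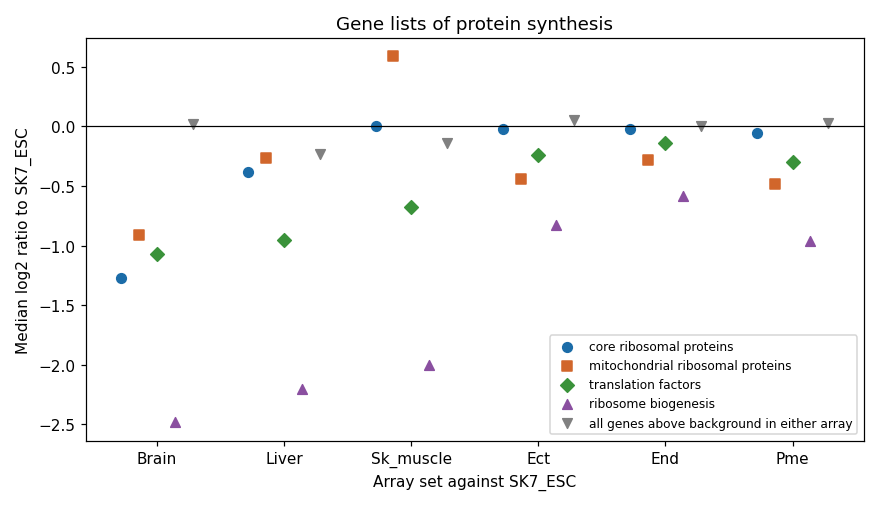
Median log2 ratio to SK7_ESC of the core ribosomal protein genes (circles), mitochondrial ribosomal proteins (squares), translation factors (diamonds), ribosome biogenesis genes (upward triangles) and all genes above background in either array (grey, downward triangles) in Brain, Liver, Sk_muscle, Ect, End and Pme, 1 array each. The biogenesis genes are lowest in each array, at -2.48 in Brain and -0.58 in End, and the mitochondrial list is above 0 in Sk_muscle alone, at 0.59.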

How the data were processed

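Biotin-labelled cRNA was hybridized to Affymetrix whole-genome mouse arrays, 1 for each of 7 samples. The deposited values are linear intensities, 1 for each of 45101 probe sets, which the authors scaled to an average of 100 per array by their methods, while the mean over all deposited probe sets was 141.2 to 204.2 here. How probes were summarised, not given in the sources used here, is unknown. The labels name RNeasy columns for the RNA and the methods TRIzol.

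The platform annotation names 35890 probe sets, of which 34958 have 1 symbol, and covers 18194 genes. A gene was represented by its brightest probe set, judged by the mean of log2 signals with values under 1 set to 1. All 49 members were matched by Entrez identifier to RefSeq (GRCm38.p6), and 0 symbols changed. Promoter sequences are those of RefSeq for that build and are not tied to probes.

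Calls were made at 2-fold with a background of 50 over all genes, and counts and medians of a list are set beside those of all genes. Members, lists and the rule for named genes were chosen with earlier results of these data known. The rule names the paralogues and their parent genes, up to 5 core genes with the largest called ratios in each of 9 comparisons, genes at least 2-fold from the core median, genes with a known role outside the ribosome, and the largest ratios of each related list. Genes named outside it, such as Rps3a1, Rps29 and Rps14, were chosen after their values were seen.

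The call rule was tested on simulated data, a copy of SK7_ESC with an assumed noise SD of 0.2 on the log2 scale set against SK7_ESC itself. It found 1 of 50 genes raised by 1.5-fold, all 50 raised by 3-fold, by 4-fold or by 8-fold, and 0 of 17994 left alone, with 18194 genes in the step. Noise was added to the copy alone, so these counts follow from the assumed SD and give no error rate for the real arrays. The number of arrays limits the precision. Alternatives were a background of 20, quantile normalization, 2 median scalings, the geometric mean of probe sets, probe sets without shared sequence, and 1.5-fold and 3-fold rules. Python 3.11.15, numpy 2.4.6, pandas 2.3.3 and matplotlib 3.10.9 were used.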

Additional observations from a re-analysis of the deposited data

How the results depend on the processing

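No paired analysis was possible because each condition has a single array. Of 100 calls over all members and comparisons, 0 changed direction to the opposite call under any of the 8 alternatives. With a background of 20, all 100 were kept, after quantile normalization 53, after scaling to the median of all probe sets 100, after scaling to the genes above 50 in all arrays 81, with the geometric mean of probe sets 85, with the 1.5-fold rule 100 and with the 3-fold rule 39. Without probe sets of shared sequence 21 core genes remained, and 49 of the 60 calls that could be made again were kept. Rpl3l in Sk_muscle and Rpl39l and Rps4l in SK7_ESC remained the brightest arrays of these genes under all 6 alternatives that could change the level or probe set. The lower bound for Rpl3l in Sk_muscle over the next array was 54.98 after quantile normalization and 199.97 with a background of 20, which follows from the lower limit. The cause of the changes below was not tested, apart from the fewer genes of the last probe set choice.

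After quantile normalization the core genes called were 1 for End, 15 for Brain, 17 for Liver and 13 for Sk_muscle against SK7_ESC, 3 for Liver and 2 for Sk_muscle against Brain, and 36 core genes were lower in all adult tissues. The median log2 ratio of the core genes was then -0.757 for Sk_muscle over SK7_ESC, -0.111 for Liver over Brain and -0.009 for Sk_muscle over Brain. The difference from genes above background in either array was -0.185 for Liver and -0.153 for Sk_muscle over Brain. The ratios of Sk_muscle over Brain for Rpl10a, Rpl38, Rplp2 and Rps4x turned to 0.982, 0.848, 0.94 and 0.977. With scaling to the median of all probe sets, core genes called were 1 for End over SK7_ESC and 30 for Liver over Brain, the median for Brain over SK7_ESC was -1.94, and 0 core genes were higher in all adult tissues. Biogenesis genes called were then 38 in Ect and 10 in End, translation factors 10 in Pme, and mitochondrial ribosomal proteins 20 in Ect, 21 in Pme, 56 in Brain and 22 in Liver. With scaling to the genes above 50, core genes called were 17 for Brain and 4 for Liver over SK7_ESC and 1 for Sk_muscle over Liver, 10 were lower in all adult tissues, and mitochondrial genes called were 19 in Brain and 11 in Liver, of which 6 were higher and 5 lower, against 3 and 10 as deposited.

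With a background of 20, 1 core gene was called in Pme and 1 in Sk_muscle over Liver. With the geometric mean, core genes called were 1 in Pme and 9 in Sk_muscle, biogenesis genes 19 in Pme, translation factors 1 in End and 3 in Pme, and mitochondrial genes 5 in Pme. Without shared probe sets, core genes called were 3 for Ect, 1 for End, 1 for Pme and 13 for Brain, with 3 for Liver and 5 for Sk_muscle over Brain, where both median log2 ratios were 0.0. These medians carry no order, since 8 of the 21 genes were under background in all 3 adult arrays on such probe sets, which sets their ratios at 1. Mitochondrial genes called were then 3 for Ect, 1 for End and 5 for Pme, and translation factors 1 in End.

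With the 1.5-fold rule, core genes called were 2 in Ect, 1 in End, 16 in Liver and 15 in Sk_muscle, 33 for Liver over Brain and 11 for Sk_muscle over Liver. Biogenesis genes were 45 for Ect, 32 for End and 48 for Pme, translation factors 23, 7 and 20, and mitochondrial genes 32, 14 and 33 in these layers, 36 in Liver and 42 in Sk_muscle. With the 3-fold rule, core genes called were 0 in Ect, 8 in Brain, 3 in Liver and 3 in Sk_muscle, 1 for Liver and 3 for Sk_muscle over Brain. Biogenesis genes were 3 for Ect, 0 for End and 1 for Pme, translation factors 3, 1 and 0 in these layers, 14 in Liver and 13 in Sk_muscle, and mitochondrial genes 1, 0 and 0 in the layers, 15 in Brain, 2 in Liver and 7 in Sk_muscle.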
